A study of Mus musculus with 20 samples.

Results

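The genes of MHC class I and class II antigen presentation described here are H2-K1, H2-D1, H2-Q1, H2-Q10, B2m, Tap1, H2-Aa, H2-Ab1, H2-Eb1 and Cd74. They are 10 of the 46078 genes in the table of counts, and all 10 were among the 14759 genes with enough counts to be tested. The members were picked by name, with the large fall of H2-Q1 in Cse-/- livers on the cysteine-free diet already known, so that fall and the other members' fold changes between Cse-/- and Cse+/- livers on this diet are given as a description with no test. For other genes, the calls in this comparison are given only as a description beside the share of all genes called. H2-Q1 passed the filter on low counts through the Cse+/- livers, where it is highest, and it is therefore tested only between groups that include no livers from the cysteine-free diet.

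Bulk poly(A) RNA was sequenced from 20 livers of male mice that were at least 9 weeks old. Cse (gene symbol Cth) encodes cystathionine γ-lyase, the enzyme that makes cysteine from cystathionine, and Cse-/- mice lack a working copy. The knockout line has a mixed 129/C57BL/6 background. All mice received a calorie-restricted (CR) control diet for 3 days and were then kept for 2 days on a CR diet. The groups were Cse+/- on the control diet (n = 2), the tryptophan-free (no-Trp) diet (n = 3) and the cysteine-free (no-Cys) diet (n = 4), and Cse-/- on the no-Trp diet (n = 3), the no-Trp diet with buthionine sulfoximine (BSO), an inhibitor of glutathione synthesis (n = 4), and the no-Cys diet (n = 4). The labels name the control genotype WT, whereas the study's list of mice gives these animals as Cse+/-. No Cse-/- livers on the control diet were analysed here. Each mouse is one library, and nothing in the labels ties a library to a litter or cage. Mice are named by the numbers in the table's header (av01 to av22).

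Class I molecules are present on nearly all nucleated cells and consist of a heavy chain bound to β2-microglobulin. They display peptides that the proteasome cuts from proteins made in the cell and that the TAP transporter carries into the endoplasmic reticulum, where CD8 T cells can read them once they reach the surface. Class II molecules are pairs of an α and a β chain that display peptides of engulfed proteins to CD4 T cells. In liver they are made mainly by antigen-presenting cells such as dendritic cells, B cells and macrophages. NLRC5 is the main transactivator of class I genes and CIITA of class II genes, and both act through a promoter module in which RFX binds the X1 box, CREB the X2 box and NF-Y the Y box.

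Counts on genes ranged from 11785740 to 57986121 per library, with a median of 15252745, and levels are given in CPM, a count relative to the total of its library, scaled with TMM factors. Cth ranged from 88.4 to 332 CPM in the 9 Cse+/- livers and from 6.37 to 14.4 CPM in the 11 Cse-/- livers, with no overlap. The 6 hepatocyte markers summed to between 47774 and 120529 CPM in every liver, as the tissue label says. They were lowest on the no-Cys diet in Cse-/- mice (47774 to 77868 CPM, against 93092 to 116404 CPM in Cse+/- mice on that diet), and the 5 red cell markers were lower there too (69.1 to 114 against 201 to 406 CPM). Most of the hepatocyte sum is Alb, and within that list Alb, Ttr, Apoa1 and Serpina1c were lower in this comparison, while Cyp2e1 had a log2 fold change of -0.04 and Cps1 was higher (0.58 ± 0.20). The part of either shift in the results on class I genes was not tested.

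Except for B2m and Cd74, the members lie within one stretch of chromosome 17 (GRCm38), from H2-K1 at chr17:33996017-34000347 to H2-Q10 at chr17:35470089-35474563. Tap1 (chr17:34187553-34197225) and the class II genes H2-Ab1 (chr17:34257689-34269419), H2-Aa (chr17:34282744-34287823) and H2-Eb1 (chr17:34305867-34316674) follow H2-K1, and H2-D1 (chr17:35262730-35267499) and H2-Q1 (chr17:35320405-35325099) precede H2-Q10. B2m lies at chr2:122147686-122153083, and Cth at chr3:157894248-157925077, away from the MHC. Genes of the MHC are inherited together as a haplotype. Which haplotype each mouse carried is not stated in the sources used, and the reads were aligned to a single reference.

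Class I genes share sequence. Of the 61-base words in a gene's transcripts (the read length), 12.9% of those of H2-Q1, 15.6% of H2-Q10, 7.80% of H2-D1 and 5.62% of H2-K1 also occur in another gene. The partner with the most words in common was H2-Q2 for H2-Q1 (7.41%) and H2-Q7 for H2-Q10 (11.7%). Tap1 shared 2.91% of its words, mostly with Psmb9, whose exons overlap it by 212 bases on the opposite strand, and the library kit does not mark strand. H2-Aa shared 0.204%, and B2m, H2-Ab1, H2-Eb1 and Cd74 shared none. Reads in the shared stretches cannot be assigned with certainty, so values of the H2-Q genes in particular carry this limit.

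The sequences before the starts of 4 members are shown because class I and class II genes share promoter boxes, so that the letters of these boxes can be looked for in them. They are the 250 bases upstream of the RefSeq start (GRCm38.p6), written 5′ to 3′ on the strand of the gene, with matches on either strand to 4 motifs in capitals: TGACG (as in the X2 box and the cAMP response element), ATTGG (the Y box, the reverse of the CCAAT box), GAAANNGAA (interferon response element-like) and GGGANTTTC (NF-kB-like). They lie at chr17:34000348-34000597, minus strand (H2-K1), chr17:35469839-35470088, plus strand (H2-Q10), chr2:122147437-122147686, plus strand (B2m), and chr17:34287824-34288073, minus strand (H2-Aa).
H2-K1: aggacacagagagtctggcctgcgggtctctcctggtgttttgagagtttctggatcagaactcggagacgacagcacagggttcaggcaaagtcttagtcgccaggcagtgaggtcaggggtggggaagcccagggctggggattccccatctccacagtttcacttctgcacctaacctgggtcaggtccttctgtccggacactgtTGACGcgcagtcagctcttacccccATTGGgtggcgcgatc
H2-Q10: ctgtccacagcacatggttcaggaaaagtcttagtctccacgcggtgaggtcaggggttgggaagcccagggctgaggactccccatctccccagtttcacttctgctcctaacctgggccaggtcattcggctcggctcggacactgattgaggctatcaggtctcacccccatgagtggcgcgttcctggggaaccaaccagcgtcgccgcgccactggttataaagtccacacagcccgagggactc
B2m: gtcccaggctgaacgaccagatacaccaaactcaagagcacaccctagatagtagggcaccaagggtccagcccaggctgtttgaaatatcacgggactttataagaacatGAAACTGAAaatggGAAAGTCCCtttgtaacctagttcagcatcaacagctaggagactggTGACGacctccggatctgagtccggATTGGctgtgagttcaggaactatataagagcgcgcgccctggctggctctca
H2-Aa: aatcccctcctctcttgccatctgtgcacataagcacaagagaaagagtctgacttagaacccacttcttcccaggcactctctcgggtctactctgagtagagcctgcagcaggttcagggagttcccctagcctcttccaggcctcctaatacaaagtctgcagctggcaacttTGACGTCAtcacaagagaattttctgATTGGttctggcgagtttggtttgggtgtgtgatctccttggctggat

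TGACG and ATTGG both occurred upstream of H2-K1, B2m and H2-Aa. They began 78 and 53 bases before the start of B2m, 41 and 16 bases before the first of the 2 RefSeq starts of H2-K1 (the window shown) and, at their first match, 74 and 48 bases before that of H2-Aa, where TGACG is read on both strands of TGACGTCA and the matches overlap. The letters GAAANNGAA and GGGANTTTC were found in the window of B2m and in that of no other member searched. Such sites also occur in other spellings, which were not searched. The window of H2-Q10 held none of the 4 strings of letters, although 158 of 191 aligned bases (82.7%) were identical with H2-K1 and 207 of 252 aligned positions (82.1%) with H2-D1. Windows for H2-D1 and Tap1 held both TGACG and ATTGG, and that of H2-Eb1 held ATTGG but not TGACG. Of 32851 RefSeq windows, searched over the same 250 bases before a start, 17.8% held TGACG, 33.8% held ATTGG, 7.13% held GAAANNGAA and 0.941% held GGGANTTTC. Windows of 7 of the 10 members were searched, and H2-Q1, H2-Ab1 and Cd74 were not. A match is a string of letters and not a binding site, and a missing match says only that the letters are not in that window.

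Per kilobase of exon, B2m and the heavy chain genes H2-K1, H2-Q10 and H2-D1 had the highest levels of the members in Cse+/- livers on the control diet, and the heavy chain gene H2-Q1 the lowest. Mean levels were 1723 CPM per kilobase for B2m, 487 for H2-K1, 439 for H2-Q10 and 199 for H2-D1, against 2.92 for Tap1 and 0.365 for H2-Q1. The class II chains H2-Aa, H2-Ab1 and H2-Eb1 were at 6.76, 10.7 and 12.6 CPM per kilobase and the invariant chain gene Cd74 at 44.5.

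**Figure D1:**
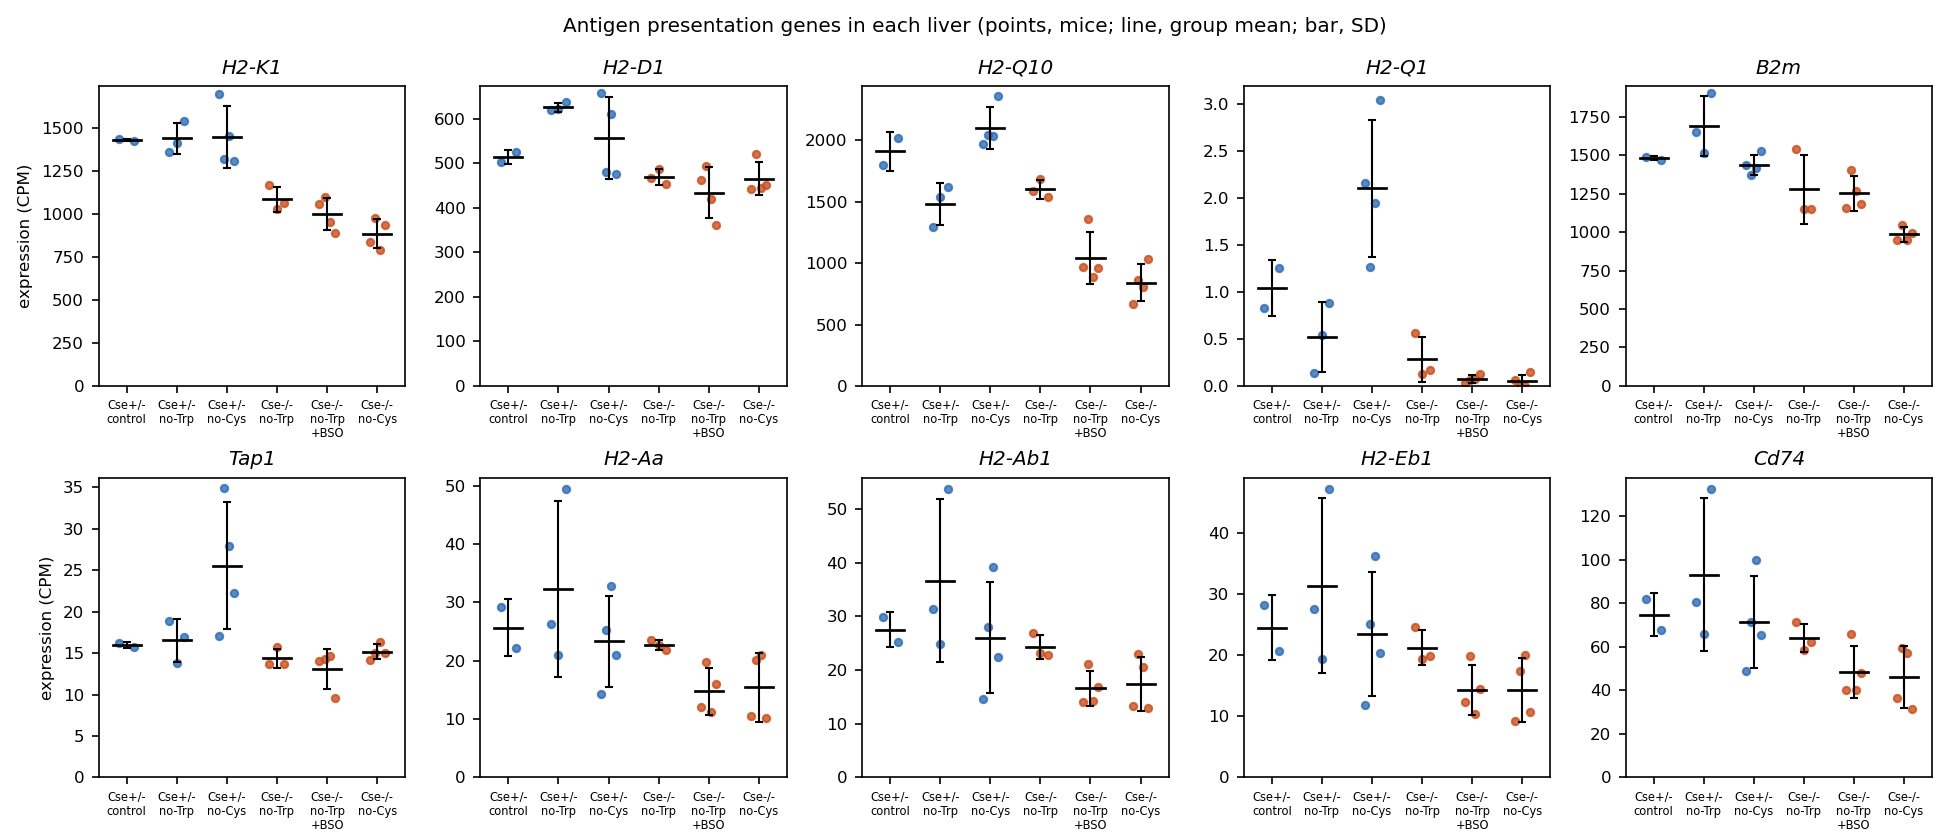
Level of each of the 10 genes in every liver, in CPM (vertical axis, from 0), by genotype and diet (horizontal axis). Points are mice (blue Cse+/-, orange Cse-/-), lines are group means and bars are SD. H2-K1 is lower in every Cse-/- liver than in every Cse+/- liver, and H2-Q10 is lowest in Cse-/- livers on the no-Cys diet and on the no-Trp diet with BSO.

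H2-K1, a classical class I heavy chain, did not overlap between the 9 Cse+/- and the 11 Cse-/- livers. Its level was 1434 and 1426 CPM in Cse+/- livers on the control diet, 1364, 1415 and 1541 on the no-Trp diet and 1700, 1323, 1455 and 1311 on the no-Cys diet. In Cse-/- livers it was 1169, 1030 and 1063 CPM on the no-Trp diet, 1059, 1099, 956 and 891 with BSO, and 839, 978, 793 and 936 on the no-Cys diet. The highest Cse-/- liver (1169 CPM) was thus below the lowest Cse+/- liver (1311 CPM). How many of all tested genes are parted in this way was not counted. In order of the means, the 3 Cse+/- groups did not differ beyond their spread, nor did neighbours among the 3 Cse-/- groups.

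H2-D1, the other classical heavy chain, differed less. It was 503 and 525 CPM (control), 619, 622 and 638 (no-Trp) and 659, 479, 611 and 477 (no-Cys) in Cse+/- livers. In Cse-/- livers it was 468, 487 and 453 CPM (no-Trp), 463, 493, 419 and 362 (no-Trp with BSO) and 443, 522, 445 and 452 (no-Cys). The genotypes overlapped on the no-Cys diet and stood apart on the no-Trp diet, where the Cse+/- livers were the highest group of all.

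H2-Q10 encodes a soluble class I heavy chain that liver secretes into the blood, and it was lowest in Cse-/- livers on the no-Cys diet. Its level was 1800 and 2020 CPM (control), 1293, 1543 and 1620 (no-Trp) and 1972, 2041, 2036 and 2359 (no-Cys) in Cse+/- livers. In Cse-/- livers it was 1586, 1684 and 1535 CPM (no-Trp), 969, 1359, 890 and 958 (no-Trp with BSO) and 664, 866, 805 and 1032 (no-Cys). The no-Trp diet alone gave levels in Cse-/- livers that overlapped those of Cse+/- livers on the same diet, and all livers of the other 2 Cse-/- groups were below those of the Cse-/- no-Trp group.

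B2m, the light chain common to class I molecules, was lowest in the Cse-/- livers on the no-Cys diet. It was 1492 and 1471 CPM (control), 1654, 1513 and 1903 (no-Trp) and 1438, 1369, 1417 and 1527 (no-Cys) in Cse+/- livers. In Cse-/- livers it was 1540, 1151 and 1151 CPM (no-Trp), 1155, 1406, 1265 and 1183 (no-Trp with BSO) and 946, 1048, 952 and 994 (no-Cys). All 4 livers of the last group were below every other liver, and in the Cse-/- no-Trp group mouse av14 (1540 CPM) lay apart from the other 2.

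Tap1, a subunit of the peptide transporter, had its highest levels in Cse+/- livers on the no-Cys diet. It was 16.2 and 15.7 CPM (control), 18.9, 13.8 and 17.0 (no-Trp) and 17.1, 34.9, 27.9 and 22.3 (no-Cys) in Cse+/- livers. The Cse-/- livers were at 13.7, 15.7 and 13.7 CPM (no-Trp), 14.0, 14.3, 14.7 and 9.54 (no-Trp with BSO) and 14.2, 15, 16.4 and 15 (no-Cys). Neighbouring groups in the order of the means overlapped throughout.

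H2-Q1, a heavy chain gene of the Q region, was rare in all livers and is best read as counts. Cse+/- livers held 14 and 18 counts (control), 2, 24 and 19 (no-Trp) and 24, 18, 25 and 43 (no-Cys), which is 0.833 and 1.25, 0.142, 0.544 and 0.887, and 2.16, 1.27, 1.94 and 3.04 CPM. Cse-/- livers held 13, 2 and 4 counts (no-Trp), 2, 1, 1 and 4 (no-Trp with BSO) and 1, 0, 0 and 2 (no-Cys), which is 0.561, 0.125 and 0.166, 0.0349, 0.0670, 0.0702 and 0.128, and 0.0590, 0, 0 and 0.148 CPM. The Cse+/- no-Cys livers were above all others and the Cse-/- no-Cys livers among the lowest, with the groups between them overlapping their neighbours.

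On the no-Cys diet, the scaled level of H2-Q1 pooled over each group was 42.3-fold higher in Cse+/- than in Cse-/- livers (110 against 3 counts). Ratios with no-Cys livers are given with no interval, because the fall there was known when the members were picked. On the no-Trp diet the corresponding ratio was 1.88 (45 against 19 counts, exact 95% interval 1.08 to 3.41, for counting error only), and the single mice overlapped. The fitted log2 fold change there was -0.89 ± 0.59, and it was -1.87 without av14 and -0.44 without av20. Relative to the control diet, the Cse+/- level was 2.05-fold higher on the no-Cys diet and 1.82-fold lower on the no-Trp diet (interval 1.12 to 2.92). The fitted log2 fold changes, whose SE holds the spread between mice, were 1.02 ± 0.54 (given with no test) and -0.90 ± 0.59. Within the Cse-/- livers, the no-Trp group was 4.41-fold higher than the group with BSO (interval 1.84 to 11.7) and 6.02-fold higher than the no-Cys group. Of the 19 counts of this no-Trp group, 13 came from mouse av14.

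Each of the following comparisons uses the fit of all 20 libraries and shares groups with the others, so they are not independent of each other. Over all tested genes the median log2 fold change was between -0.00928 and 0.0108 in each. The shares of all tested genes with an unadjusted p under 0.05, or with groups that did not overlap, were not computed. Counts before adjustment and groups that stand apart are therefore given as a description, and groups this small can stand apart by chance. The plot of fold changes shows the 9 members other than H2-Q1, whose counts are too low for that scale.

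**Figure D2:**
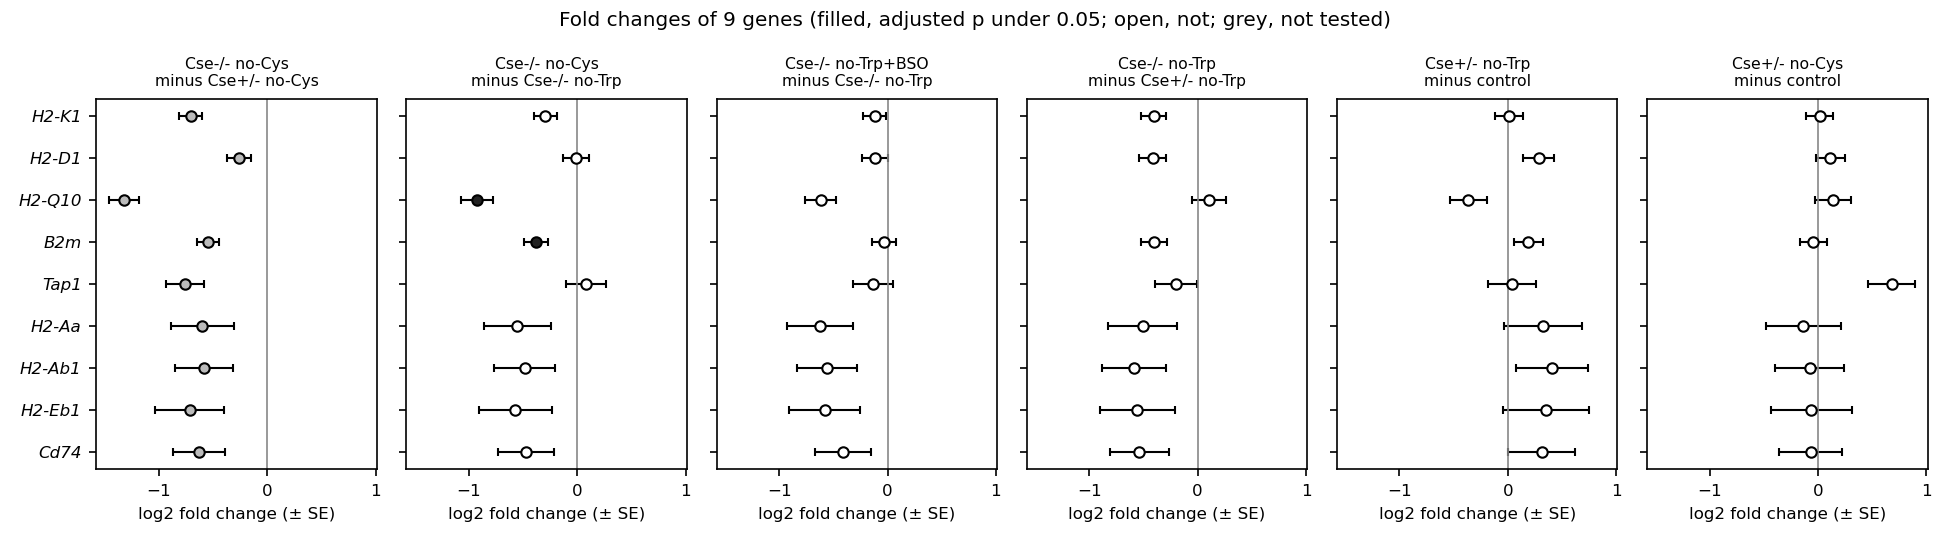
Log2 fold change (horizontal axis) with its SE for 9 genes in the 6 comparisons, from edgeR. Filled points have an adjusted p under 0.05, open points do not, and grey points in the first panel were not tested. H2-Q10 and B2m are the filled points, both in Cse-/- livers on the no-Cys against the no-Trp diet.

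Between Cse-/- and Cse+/- livers on the no-Cys diet, where 11.6% of all tested genes were called higher and 12.2% lower at an adjusted p of 0.05, all 10 members had a lower mean in Cse-/- livers. The log2 fold change was -1.32 ± 0.14 (SE) for H2-Q10, -0.76 ± 0.17 for Tap1, -0.71 ± 0.10 for H2-K1, -0.55 ± 0.10 for B2m and -0.26 ± 0.11 for H2-D1. For class II it was -0.72 ± 0.32 for H2-Eb1, -0.63 ± 0.24 for Cd74, -0.60 ± 0.29 for H2-Aa and -0.58 ± 0.27 for H2-Ab1. The fitted value for H2-Q1 was -5.23 ± 0.68, which depends on how counts near 0 are treated, and it ranged from -6.27 (without av08) to -4.81 (without av07) with one library left out. As a description, with no share over all tested genes to set it against, the groups did not overlap for H2-K1, H2-Q1, H2-Q10, B2m and Tap1. They overlapped for H2-D1 and the class II genes.

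In Cse-/- livers, H2-Q10 and B2m were lower on the no-Cys than on the no-Trp diet. The 4 no-Cys livers are those of the comparison in view when the members were chosen, so the tests here are not independent of that choice. This comparison sets the lack of cysteine against the lack of tryptophan in the same genotype. Without Cse-/- livers on the control diet, a difference can come from either diet. Of all tested genes 5.05% were called higher and 5.35% lower. Of the 9 members tested, 2 were called, both lower: H2-Q10 by a log2 fold change of -0.93 ± 0.15 (edgeR adjusted p = 0.000657) and B2m by -0.38 ± 0.11 (adjusted p = 0.0344). Neither gene's groups overlapped. The call for B2m was lost without any one of the mice av05, av06, av07 or av14 (adjusted p 0.0548 to 0.252) and in a fit of these groups alone (adjusted p = 0.136). Its value without av14 was -0.22. The call for H2-Q10 held in each of these fits. In the same comparison 4 of the 6 hepatocyte markers (list median -0.58) and 3 of the 5 red cell markers (median -0.81) were called lower, and their part in the result was not tested.

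Of the other members, H2-K1 had -0.29 ± 0.11 (adjusted p = 0.0880, and 0.0474 in DESeq2) and its groups did not overlap. The class II genes H2-Aa, H2-Ab1, H2-Eb1 and Cd74 had log2 fold changes of -0.55 ± 0.31, -0.48 ± 0.28, -0.57 ± 0.33 and -0.47 ± 0.26, with adjusted p from 0.255 to 0.290, and the groups did not overlap for H2-Aa. H2-D1 (-0.01 ± 0.12) and Tap1 (0.08 ± 0.19) had values near 0.

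The addition of BSO to the no-Trp diet asks what inhibition of glutathione synthesis does in Cse-/- livers. Here 0.488% of tested genes were called higher and 0.305% lower, and edgeR called 0 of the 10 members. Before adjustment 2 had a p under 0.05. With DESeq2 1 member was called, where that test called 196 genes higher and 160 lower of 12181. H2-Q10 had a log2 fold change of -0.62 ± 0.15, with an adjusted p of 0.0518 in edgeR and 0.00397 in DESeq2, and the 4 livers with BSO were all below the 3 without. In mouse av10 (1359 CPM) it was far above the other 3 livers with BSO, and without that mouse the value was -0.78 (adjusted p = 0.00596). H2-Q1 had -1.99 ± 0.74 (adjusted p = 0.225), from 8 counts in the 4 livers with BSO and 19 in the 3 without, and -1.03 without mouse av14. B2m (-0.03 ± 0.11) and H2-K1 (-0.12 ± 0.11) had values near 0, and the class II genes had values from -0.62 to -0.41 with adjusted p of 0.394 to 0.532.

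On the no-Trp diet the classical chains had lower values in Cse-/- livers. The H2-Q1 fall known when the members were picked was not from this comparison of genotypes, but earlier results of these data were known. The shares called over all tested genes were 1.4% higher and 1.24% lower. Of the 10 members edgeR called 0. DESeq2 called 424 genes higher and 299 lower of 14469. Before adjustment 3 members had a p under 0.05, all lower, and these 3 were called with DESeq2. They were H2-K1 (log2 fold change -0.41 ± 0.12, adjusted p = 0.0680 in edgeR and 0.0174 in DESeq2), H2-D1 (-0.42 ± 0.13, 0.0845 and 0.0338) and B2m (-0.40 ± 0.12, 0.0754 and 0.0230). The groups did not overlap for H2-K1 and H2-D1. They overlapped for B2m through mouse av14, and without it the value was -0.57 (edgeR adjusted p = 0.0176). H2-Q10 had 0.11 ± 0.16 (adjusted p = 0.759). The hepatocyte markers summed to 76071 to 83342 CPM in Cse-/- and 87567 to 95763 CPM in Cse+/- livers on this diet, and the red cell markers to 119 to 184 and 211 to 258 CPM, and their part was not tested. The class II genes had values from -0.59 to -0.51 (adjusted p 0.297 to 0.421), and without mouse av20 these were -0.20 to -0.06.

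Among Cse+/- livers, edgeR called no tested member between diets. For the no-Trp against the control diet, 0.00678% of tested genes were called higher and 0.0407% lower. edgeR called 0 of 10 members, 0 had a p under 0.05 before adjustment, and 0 were called with DESeq2. H2-Q10 had -0.36 ± 0.17 (adjusted p = 0.539) and H2-D1 0.29 ± 0.14 (adjusted p = 0.558), and neither gene's groups overlapped. For the no-Cys against the control diet, 0.989% were called higher and 1.19% lower. DESeq2 called 312 genes higher and 303 lower of 13611. edgeR called 0 of the 9 members tested, while 1 had a p under 0.05 before adjustment and was called with DESeq2. This was Tap1 (0.68 ± 0.21, adjusted p = 0.101 in edgeR and 0.0476 in DESeq2), whose 4 livers on the no-Cys diet were above the 2 control livers. Without mouse av01 it was 0.84 (edgeR adjusted p = 0.0220), and without av02 0.49. With 2 control livers, differences of this size are poorly resolved.

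Between H2-Q1 and H2-Q10 lie other heavy chain genes of the Q region. H2-Q7 and H2-Q6, which encode heavy chains of the Qa-2 type, were both called lower in Cse-/- than in Cse+/- livers on the no-Trp diet. H2-Q7 was 37.5, 33.8 and 32.3 CPM in Cse+/- livers and 17.4, 13.8 and 17.5 in Cse-/- livers on that diet (log2 fold change -1.08 ± 0.23, edgeR adjusted p = 0.0160). H2-Q6 was 26.6, 21.5 and 30.2 CPM and 15.9, 11.3 and 15.5 CPM (-0.87 ± 0.21, adjusted p = 0.0321). Without mouse av15 the adjusted p was 0.0811 for H2-Q7, and H2-Q6 lost its call without av15, av16, av17 or av20 (0.0510 to 0.135) and in a fit of these groups alone (0.0903). H2-Q4 had -0.55 ± 0.17 (adjusted p = 0.0773) and was called with DESeq2 (0.0392), with no filter (0.0377) and without av14 (0.0351). H2-Q2 had -1.03 ± 0.51 (adjusted p = 0.290) and H2-Q5 -0.50 ± 0.29 (0.371).

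Over all diets, H2-Q7 ranged from 8.03 to 22.6 CPM in the 11 Cse-/- livers and from 28.4 to 45.5 CPM in the 9 Cse+/- livers, without overlap. H2-Q2 ranged from 0.0590 to 0.345 and from 0.353 to 1.09 CPM, which rests on 1 to 20 counts in a library, with 8 and 5 counts in the nearest livers of the genotypes. H2-Q1 is the gene with which H2-Q2 shares the most words (10.7%). H2-Q4 (15.5 to 29.8 against 28.6 to 44.4 CPM), H2-Q5 (1.18 to 3.15 against 2.18 to 4.94 CPM) and H2-Q6 (7.53 to 15.9 against 15.2 to 30.2 CPM) overlapped slightly. H2-Q3 had 2 counts over all 20 libraries, both in the same liver, and was not tested. Of the transcript words of H2-Q2, H2-Q4, H2-Q5, H2-Q6 and H2-Q7, between 11.6% and 28% occur in other genes, and H2-Q4 overlaps a gene on the opposite strand. These genes were chosen by position, with values of the region already seen. On the no-Cys diet, H2-Q7 had a log2 fold change of -1.48 ± 0.20, and H2-Q2 a fitted value of -2.85 ± 0.54 from 1, 2, 2 and 1 counts in Cse-/- livers and 12, 5, 14 and 8 in Cse+/- livers.

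**Figure D3:**
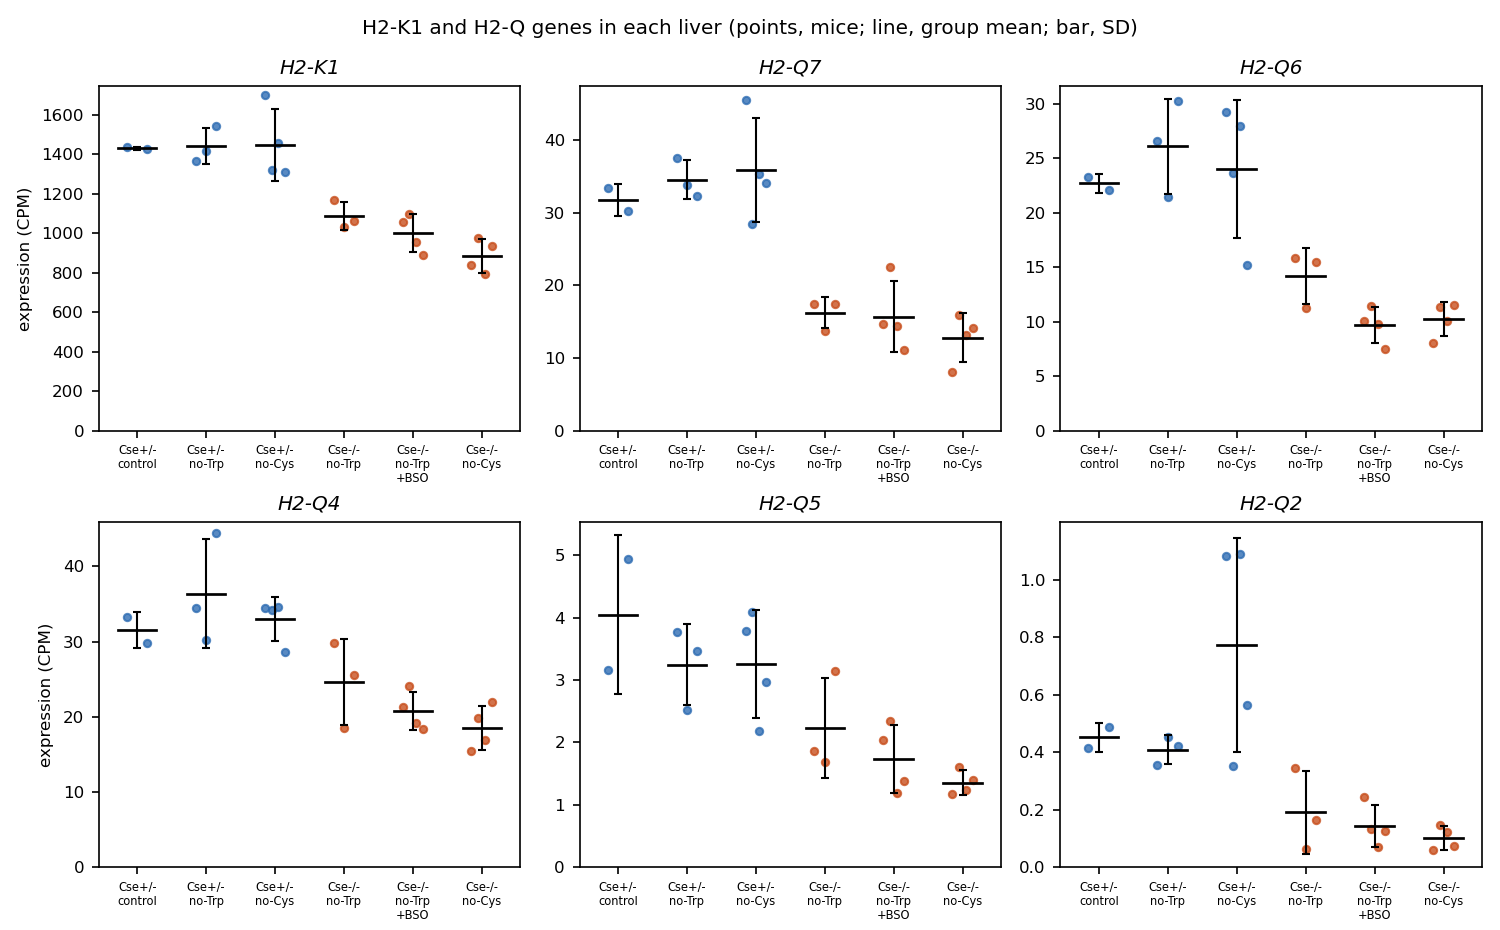
Level of H2-K1 and of the 5 tested H2-Q genes that are not members, in CPM from 0 (vertical axis), in each liver by genotype and diet (horizontal axis). Points are mice (blue Cse+/-, orange Cse-/-), lines are means and bars are SD. For H2-K1 and H2-Q7 all Cse-/- livers are below all Cse+/- livers, and H2-Q2 is near 0 in all livers.

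The list of other class I heavy chains, which takes in H2-Q2, H2-Q4, H2-Q6 and H2-Q7, had 15 genes, of which 11 were tested. Between genotypes on the no-Cys diet 7 were called lower, these 4 among them, and none higher, against 12.2% lower and 11.6% higher of all tested genes. H2-Q2 should be left out of that count, because like H2-Q1 it passed the filter through the Cse+/- no-Cys livers. The median log2 fold change was -0.66 with H2-Q2 included, against -0.01 over all tested genes. On the no-Trp diet the 2 called were H2-Q7 and H2-Q6, both lower, with a median of -0.17, against 1.24% of all tested genes called lower. With DESeq2 4 were called, where that test called 299 genes lower and 424 higher of 14469. In Cse-/- livers on the no-Cys against the no-Trp diet edgeR called 0, 3 had a p under 0.05 before adjustment, and the median was -0.35. With DESeq2 1 was called, where that test called 1007 genes lower and 946 higher of 13326. With BSO edgeR and DESeq2 called 0, and 2 had a p under 0.05 before adjustment.

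Of 12 genes that supply and load peptides for class I, all tested, 8 were called lower and 1 higher in Cse-/- than in Cse+/- livers on the no-Cys diet, with a median of -0.43, against 12.2% lower and 11.6% higher over all tested genes. The largest falls were in the immunoproteasome subunits Psmb8 (-1.74 ± 0.18) and Psmb10 (-1.06 ± 0.14), and the gene that rose was Calr (0.59 ± 0.15), an endoplasmic reticulum chaperone. Against the no-Trp diet in Cse-/- livers 2 were called, both lower, against 5.35% of all tested genes, and they were again Psmb8 (-0.70 ± 0.19, adjusted p = 0.0266) and Psmb10 (-0.67 ± 0.15, adjusted p = 0.00800). Psmb8 lay between 4.90 and 7.89 CPM on the no-Cys diet and between 6.86 and 12 CPM on the no-Trp diet, so these groups overlapped. The call of Psmb8 was lost without av05, av06, av07, av14 or av16 (up to 0.158) and in a fit of these groups alone (0.0988). That of Psmb10 was lost only in the latter fit (0.0713).

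On the no-Trp diet Psmb8 was the only one of the 12 called between genotypes, against 1.24% of all tested genes called lower and 1.4% higher, with 6.86 to 12 CPM in Cse-/- and 16.2 to 19.5 CPM in Cse+/- livers (-0.87 ± 0.20, adjusted p = 0.0235). The call was lost without av15, av17 or av20 (0.0513 to 0.11) and in a fit of these groups alone (0.122). With BSO edgeR and DESeq2 called 0 of the 12, and 0 had a p under 0.05 before adjustment.

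Of 14 regulators of MHC transcription, 7 were called lower and 1 higher between genotypes on the no-Cys diet (median -0.22), against 12.2% and 11.6% of all tested genes. Ciita (-1.31 ± 0.44) and Nlrc5 (-0.85 ± 0.20) had the largest falls, and Rfxank, a subunit of the RFX complex, rose (0.40 ± 0.14). Against the no-Trp diet in Cse-/- livers 3 were called, all lower, against 5.35% of all tested genes, led by Ciita (-1.57 ± 0.44, adjusted p = 0.0292) and Nfyb, a subunit of NF-Y (-0.50 ± 0.15, adjusted p = 0.0363). Ciita was at 0.236 to 0.587 CPM on the no-Cys diet and 0.953 to 1.31 CPM on the no-Trp diet, without overlap but from few counts, and its adjusted p was 0.0359 to 0.0914 when one library was left out. The call of Nfyb was lost without av05, av06, av07, av14 or av16 (up to 0.224) and in a fit of these groups alone (0.145). Nlrc5 had -0.07 ± 0.22 in this comparison (adjusted p = 0.880). In Cse+/- livers on the no-Cys against the control diet the interferon-γ receptor subunit Ifngr2 was the one regulator called, at 0.49 ± 0.12 (adjusted p = 0.0454), where 0.989% of all tested genes were called higher. That call was lost when av02, av03, av04, av21 or av22 was left out, and without av21 the value was 0.31.

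The class II members rose and fell together from mouse to mouse. The 4 genes summed to 169 and 136 CPM in Cse+/- livers on the control diet, 166, 131 and 283 on the no-Trp diet and 89.7, 150, 208 and 129 on the no-Cys diet. The sum in Cse-/- livers was 146, 124 and 127 CPM (no-Trp), 78.7, 127, 75.7 and 95 (no-Trp with BSO) and 69.6, 120, 119 and 65.2 (no-Cys). Mouse av20, a Cse+/- mouse on the no-Trp diet, was the highest liver for each of the 4 genes, and av08 and av05 of the Cse-/- no-Cys group were the lowest by this sum. In such bulk samples, fewer class II-expressing cells and less class II RNA per cell cannot be told apart.

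Singly, Cd74, the invariant chain that guards the groove of class II, was 81.9 and 67.7 CPM (control), 80.5, 66.1 and 133 (no-Trp) and 48.9, 71.3, 99.7 and 65.3 (no-Cys) in Cse+/- livers. Its level in Cse-/- livers was 71.2, 58.7 and 62.3 CPM (no-Trp), 40.2, 65.7, 40.0 and 47.8 (no-Trp with BSO) and 36.5, 59.3, 57.3 and 31.5 (no-Cys). All neighbouring groups in the order of its means overlapped. H2-Aa and H2-Ab1, the α and β chain of I-A, ranged over the 20 livers from 10.1 to 49.4 and from 12.9 to 53.8 CPM, and H2-Eb1, the β chain of I-E, from 9.15 to 47.1 CPM. The lowest and highest values of each gene were in the same groups as those of Cd74.

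As a description over the 20 libraries, which share depth and RNA quality within a library, log2 CPM of the 4 class II genes had Pearson correlations of 0.975 to 0.984 with each other. The genes most like Cd74 were H2-Aa (0.984), H2-Ab1 (0.979), H2-Eb1 (0.975), Srgn (0.909) and Epsti1 (0.889), among tested genes with a mean of at least 1 CPM. Those most like B2m were Gm45753, Lsm6, Tmem59, Fam133b and Serpina1a (0.953 to 0.902), and those most like H2-Q1 were Dbi, Slc17a8, Unc119, Chrna4 and Fras1 (0.939 to 0.909).

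**Figure D4:**
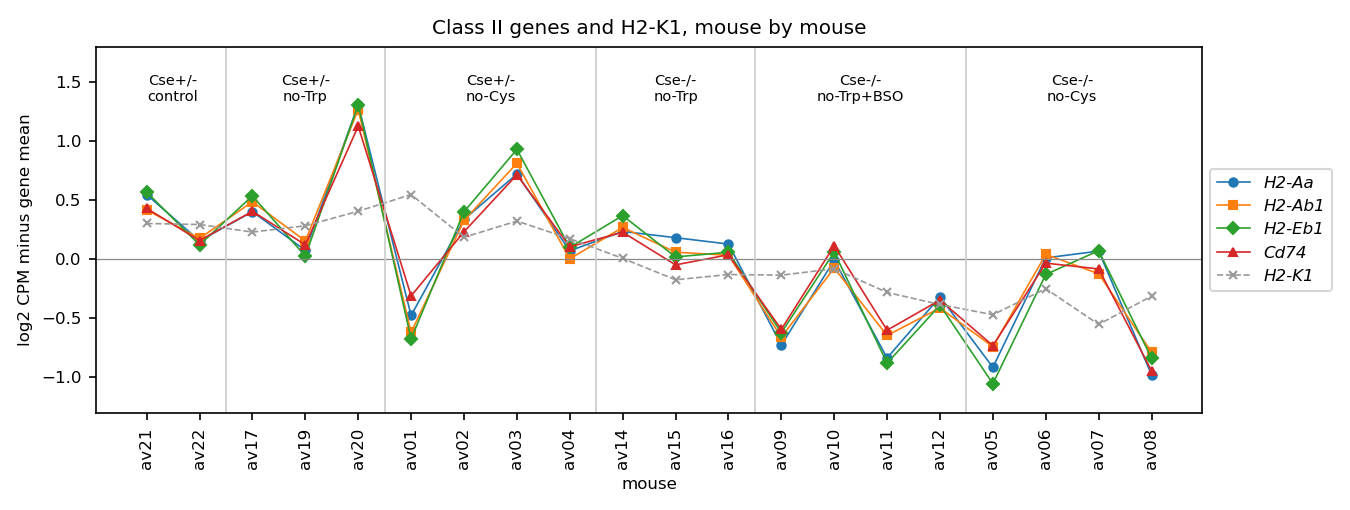
Log2 CPM of the 4 class II genes and of H2-K1 (grey dashed line) relative to the gene's mean over 20 livers (vertical axis), mouse by mouse within groups (horizontal axis). The 4 class II genes overlie each other, with av20 highest, while H2-K1 follows the genotype.

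Markers of cells that carry class II were detected in every group. The 10 Kupffer cell and macrophage markers summed to 319 to 492 CPM over all livers, with 319 to 375 CPM in Cse-/- and 377 to 466 CPM in Cse+/- livers on the no-Cys diet, and 3 of the 10 were called lower in that comparison, against 12.2% of all tested genes. The 6 dendritic cell markers summed to 10.9 to 17.2 CPM. Flt3, Xcr1, Cd209a and Itgax were each under 1 CPM on average on the no-Cys diet in both genotypes. Xcr1, Itgax, Clec9a and Zbtb46 had enough counts to be tested, and 0 of these 4 were called by edgeR or DESeq2 between these genotypes, nor did any have a p under 0.05 before adjustment. The 4 B cell markers were each under 1 CPM on average in every group and summed to 0.531 to 1.25 CPM in Cse-/- and 1.26 to 2.89 CPM in Cse+/- livers on the no-Cys diet, with 1 of the 2 tested called lower, where 12.2% of all tested genes were. Between the no-Cys and no-Trp diets in Cse-/- livers, the 4 tested dendritic cell markers had a median of -0.54 and 0 were called by edgeR or DESeq2, with 2 at a p under 0.05 before adjustment. Over the 20 libraries, which share depth and composition, the class II sum had a Pearson correlation of 0.51 with the Kupffer cell sum, 0.59 with the dendritic, 0.60 with the B cell, 0.66 with the T and NK cell and 0.71 with the endothelial sum, as a description. The correlation was 0.49 with the red cell, 0.36 with the hepatocyte and 0.21 with the bile duct sum. The part of these cells in the class II values was not tested.

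Of 9 other genes of the class II pathway, 7 were tested. Between genotypes on the no-Cys diet 1 was called, Ifi30, a lysosomal thiol reductase (-0.68 ± 0.13), where 12.2% of all tested genes were called lower, while the peptide exchange factors H2-DMa and H2-DMb1 had -0.51 ± 0.26 and -0.74 ± 0.39, and the median was -0.68. In the other 5 comparisons edgeR called 0, 0 to 2 genes had a p under 0.05 before adjustment, and at most 1 was called with DESeq2.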

How the data were processed

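RNA-seq of 20 mouse livers was analysed from one table of counts per gene that the authors deposited. Per the submitters' processing notes, reads were aligned with HISAT2 2.1.0 to GRCm38 and counted with HTSeq 0.11.0. The annotation release and the handling of reads with several matches are not stated in the sources used. The counts were not normalised by the authors, and libraries were paired-end with 61 bases per read from poly(A) RNA, prepared with a kit that does not mark strand.

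The table held 46078 genes, of which 935 had no symbol. Columns were assigned to groups through the genotype and diet that the study's list of mice gives for each column name, and 1 column with no sample here was not used. No libraries were duplicates, since 25 pairs within groups differed by a chi-square of 9.60 to 64.2 per gene.

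One edgeR 4.0.16 quasi-likelihood fit (R 4.3.3) with TMM factors and 6 group means covered the 14759 genes that passed filterByExpr (minimum count 10, minimum total 15). p-values were two-sided and adjusted after Benjamini-Hochberg over these genes, with a threshold of 0.05. The SE was taken from the fold change and its F statistic. Intervals of pooled H2-Q1 counts are exact at 95%, cover counting error only and are given only between groups with no livers from the no-Cys diet. Alternatives were DESeq2 1.42.0, RLE and upper-quartile scaling, no filter, a mean of at least 1 CPM, a fit of the compared groups alone, and leaving out each library. The fit was tested on simulated data.

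Named genes were the members and, from lists of the pathway, those called with the largest changes, plus the H2-Q genes between H2-Q1 and H2-Q10. The members and lists were chosen with earlier results of these data known. Promoter windows came from RefSeq (GRCm38.p6).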

Additional observations from a re-analysis of the deposited data

Results flagged for a closer look

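Of the 30 sets of 4 livers examined (10 members in 3 groups), 3 held a value further from the nearest other liver than Dixon's 95% limit allows. Chance gives this for about 1 in 20 sets. H2-D1 was at 522 CPM in mouse av06 of the Cse-/- no-Cys group, against 443 to 452 CPM in the other 3. H2-Q10 was at 1359 CPM in mouse av10 of the Cse-/- group with BSO, against 890 to 969 CPM in the others. Tap1 was at 9.54 CPM in mouse av12 of that group, against 14.0 to 14.7 CPM.

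The difference of H2-Q10 between Cse-/- and Cse+/- livers had a log2 fold change of 0.11 on the no-Trp diet and -1.32 on the no-Cys diet. The latter value took part in the choice of the members, and the difference between the diets was not tested.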

How the results depend on the processing

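No paired analysis was possible because the columns carry mouse numbers that cannot be tied to the replicate numbers in the labels. Between genotypes on the no-Cys diet the median log2 fold change of the 9 members other than H2-Q1 was -0.63, and -0.77 (without av01) to -0.43 (without av03) with one library left out. For the no-Cys against the no-Trp diet in Cse-/- livers, 2 members were called, against 3 under DESeq2 (H2-K1, H2-Q10 and B2m), 1 in a fit of these groups alone and 1 to 2 with one library left out. With BSO, 0 members were called, against 1 (H2-Q10) under DESeq2, RLE or upper-quartile scaling, no filter or a mean of at least 1 CPM, and 0 to 1 with one library left out (1 without av10). Its adjusted p was 0.00397, 0.0493, 0.0448, 0.0113 and 0.0499 in that order. Between genotypes on the no-Trp diet, 0 were called, against 3 under DESeq2 and 0 to 1 with one library left out (1 without av14). For the no-Trp against the control diet 0 were called throughout. For the no-Cys against the control diet 0 were called, against 1 (Tap1) under DESeq2 and with no filter, and 0 to 1 with one library left out (1 without av01). The causes were not tested.

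Reversals came only from leaving out one library and concerned members that were not called. The log2 fold change ranged from -0.0762 to 0.0175 for H2-D1 between the no-Cys and no-Trp diets in Cse-/- livers, and from -0.12 to 0.12 for B2m with BSO. For the no-Trp against the control diet it ranged from -0.0374 to 0.0566 for H2-K1, -0.0527 to 0.17 for Tap1, -0.12 to 0.58 for H2-Aa, -0.0695 to 0.62 for H2-Eb1 and -0.0290 to 0.52 for Cd74. For the no-Cys against the control diet it ranged from -0.0585 to 0.0708 for H2-K1, -0.34 to 0.0706 for H2-Aa, -0.33 to 0.13 for H2-Ab1, -0.34 to 0.18 for H2-Eb1 and -0.26 to 0.0844 for Cd74.

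Counts of genes called moved by over 1.5 times. With BSO 72 genes were called higher and 45 lower, against 196 and 160 under DESeq2, 136 and 151 without the filter and 42 and 33 in a fit of these groups alone. Between genotypes on the no-Trp diet the counts were 206 and 183, against 424 and 299 under DESeq2 and 41 and 42 in a fit of the groups alone. For the no-Trp against the control diet they were 1 and 6, against 25 and 35 under DESeq2 and 31 and 40 without the filter. For the no-Cys against the control diet they were 146 and 176, against 312 and 303 under DESeq2 and 59 and 79 in a fit of the groups alone. For the no-Cys against the no-Trp diet in Cse-/- livers they were 746 and 789, against 248 and 273 in a fit of the groups alone. Leaving out one library lowered these counts at most to 24 and 12 with BSO (without av09), 50 and 59 between genotypes on the no-Trp diet (without av15), 314 and 369 for the no-Cys against the no-Trp diet (without av14) and 3 and 7 for the no-Cys against the control diet (without av22). Ifngr2 lost its call without the filter (0.0829) and in a fit of the groups alone (0.158). Depth limits H2-Q1, with at most 43 counts in a library, and the class II genes had an SE of 0.24 to 0.39.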
